A study of Mus musculus with 2 samples.

Results

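The genes described here are 10 WNT ligands that are made in reproductive duct epithelium or the mesenchyme around it: Wnt2, Wnt2b, Wnt4, Wnt5a, Wnt5b, Wnt6, Wnt7a, Wnt9a, Wnt9b and Wnt11. They were found through the array's platform annotation, which assigned 20 probe sets to 1 of these genes alone, out of 45037 probe sets that were not controls and 18193 genes named by such probe sets. RNA came from mouse urogenital ridges at E14.5, in which both the Müllerian and the Wolffian duct run, after the gonads had been taken off. The Misr2-/- pool was homozygous for a deletion of Misr2 and the Misr2+/- pool was heterozygous, so that Misr2+/- ridges also carried 1 deleted allele. Each pool held about 100 ridges, each was hybridised to 1 array, and the strain of both was a mix of C57Bl/6 and 129SVEV. Genotype was scored with a YFP reporter whose driver, like the sex of the embryos, is not stated in the labels.

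WNT ligands are secreted, lipid-modified glycoproteins that act over short distances. They bind Frizzled receptors with Lrp5 or Lrp6 to stabilise beta-catenin, or with Ror2, Ryk and others to steer cell polarity and movement. In the mouse reproductive tract the Müllerian duct needs Wnt4 to form and Wnt9b from the Wolffian duct to elongate. Wnt7a from the Müllerian duct epithelium is needed for the mesenchyme to express Amhr2, the gene called Misr2 in the labels, and so for the duct to regress in males. Amhr2 encodes the receptor that binds MIS, the Müllerian inhibiting substance, and the labels call the Misr2+/- ridges responsive to MIS and the Misr2-/- ridges unresponsive. The comparison therefore asks which WNT ligand transcripts of the ridge differ with the receptor.

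With 1 array per pool there were no replicates, so no difference between the genotypes was tested and none has a p-value. Signals are linear intensities. Each array's median was its floor, 139.4 in the Misr2-/- pool and 116.5 in the Misr2+/- pool, and a probe set counted as measured when either signal reached its floor. The log2 difference is Misr2-/- minus Misr2+/-, minus the shift of 0.26 between the array medians. Over 5264 genes with several measured probe sets, the log2 differences of probe sets of the same gene had a spread of 0.23 (SD), and the SD was 0.27 among the 1316 dimmest and 0.20 among the 1316 brightest genes. This spread is the error given beside each difference, and it leaves out variation between pools. Amhr2 had signals of 10.2 in the Misr2-/- pool and 1549.6 in the Misr2+/- pool in its brightest probe set, at least 13.3-fold lower in Misr2-/- and in the direction of the labels. Its other probe sets had 27.7 and 2.8 in the Misr2-/- pool, under the floor, against 1047.8 and 181 in the Misr2+/- pool.

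Of the 10 ligands, 8 were measured. Wnt7a was 1.57-fold higher in the Misr2-/- pool and was the 1 ligand past 1.5-fold in the higher direction, while 0 were past it in the lower direction. Among all 11432 measured genes, 2.08% were at least 1.5-fold higher and 0.883% at least 1.5-fold lower. Wnt4 was 1.41-fold lower and was the lowest of the 8. In pooled tissue, fewer cells of a type and less RNA per cell cannot be told apart. The other 6 ligands lay within 0.3 of 0 on the log2 scale, as did 83.3% of all measured genes. No ligand reached 2-fold in either direction, against 0.236% of genes higher and 0.219% lower. The 8 ligands were divided evenly, 4 above and 4 below 0 (7 above as deposited and 1 when scaled to the hybridisation spikes), where 57.7% of all genes lay above 0, and their median log2 difference was -0.01 against 0.04 for all genes.

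**Figure D1:**
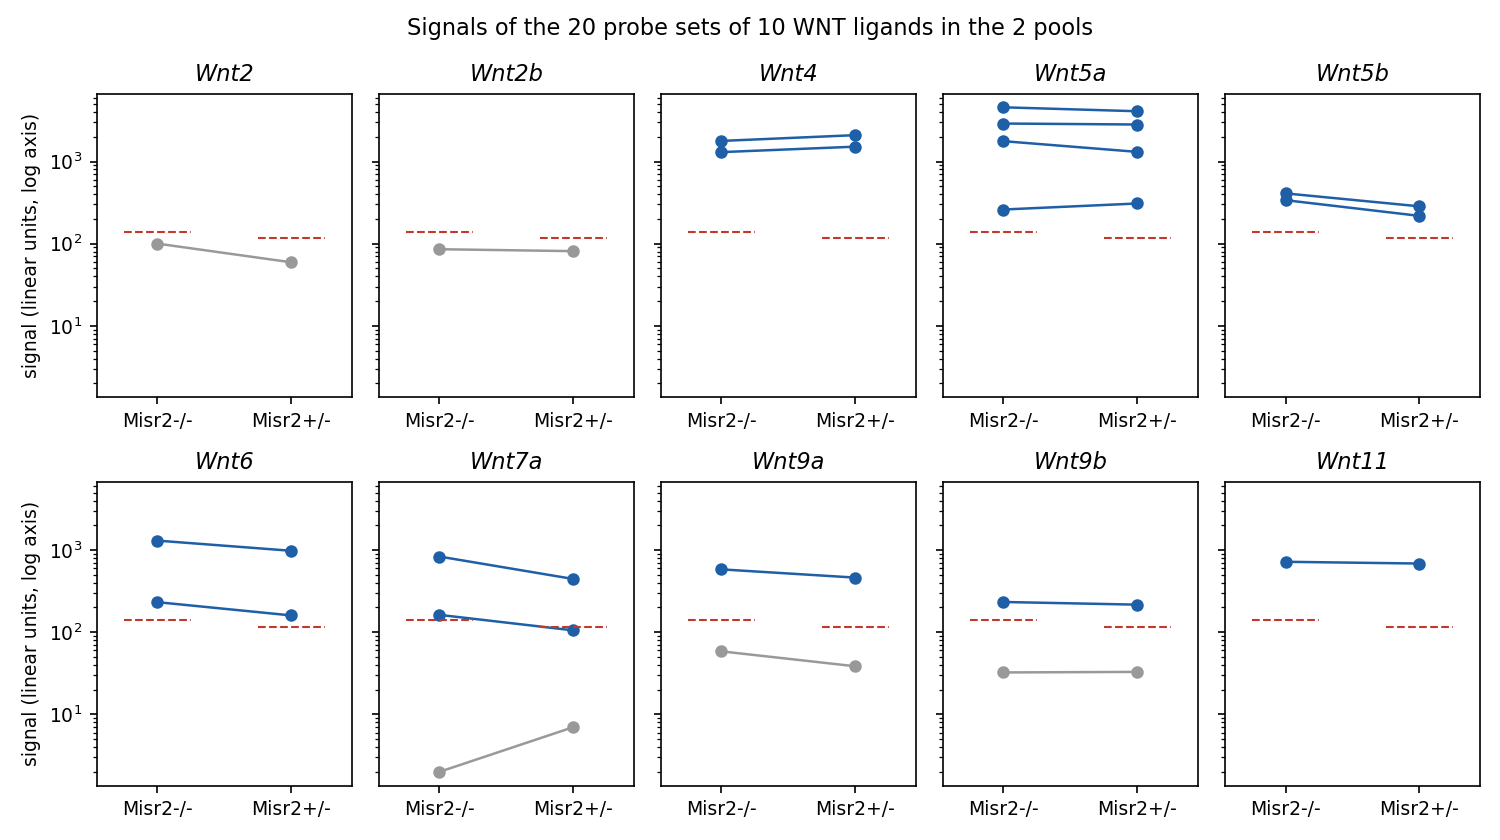
Signals of the 20 probe sets of the 10 ligands, 1 panel per gene, with the Misr2-/- pool left and the Misr2+/- pool right on a log axis. Lines join the same probe set, red dashes mark each array's floor, and the 5 grey probe sets lie under the floor in both pools. Both Wnt4 lines run up to the Misr2+/- side, and both measured Wnt7a lines run down to it.

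Wnt7a was the ligand with the highest difference. Its brightest probe set, 1423367_at, gave a signal of 832.9 in the Misr2-/- pool and 444 in the Misr2+/- pool. The log2 difference of 0.65 was 2.81 times the spread between probe sets at that signal, 0.23. Of all measured genes, 1.37% had a difference at least as high. Because Wnt7a was the highest of the ligands, neither number is that of a gene chosen without regard to its value. The probe set 1447647_at gave 162.6 in the Misr2-/- pool and 105.3 in the Misr2+/- pool, where the Misr2+/- value lies under the floor. It was therefore at least 1.17-fold higher, in the same direction but smaller as a bound. The dimmest, 1458334_at, lay under both floors, with 2 in the Misr2-/- pool and 7 in the Misr2+/- pool. The size of the Wnt7a difference thus rests on 1 probe set. As deposited, without the median shift, it was 1.88-fold. Scaling the arrays to the spikes brought its log2 difference to 0.26, a floor at each array's 75th percentile to 0.40, and the median of its measured probe sets to 0.44, each short of 1.5-fold. Wnt7a lies on chromosome 6.

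Wnt4, which is also needed in the kidney and the fetal ovary, was lower in the Misr2-/- pool in both of its probe sets. The probe set 1450782_at gave 1779.9 in the Misr2-/- pool and 2092.9 in the Misr2+/- pool. The probe set 1441687_at gave 1300.8 in the Misr2-/- pool and 1515.7 in the Misr2+/- pool. All 4 signals stood far above the floor, and the log2 differences of -0.49 and -0.48 were nearly the same. Divided by the spread at its signal, 0.23, the first came to -2.17, and 1.47% of all measured genes had a difference at least as low. Because Wnt4 was the lowest of the ligands, these numbers too are not those of a gene chosen without regard to its value. As deposited, the log2 difference was -0.23, and scaled to the spikes it was -0.88. Wnt4 lies on chromosome 4.

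Wnt7a and Wnt4 were the 2 ligands whose brightest probe set exceeded the spread between probe sets of a gene, and they went in opposite directions. The gap between them was 1.14 on the log2 scale, a 2.21-fold change in the ratio of the Wnt7a to the Wnt4 signal. A constant that scales a whole array cancels in this ratio. From the probe sets of a gene, the spread of a gap was 0.32 for 2 genes chosen without regard to their values. Wnt7a and Wnt4 were chosen as the highest and lowest of the 8, so 0.32 understates the spread for this gap, which was not tested. With the floor at the 75th percentile Wnt7a stood at 0.40 and Wnt4 at -0.49. With the median of each gene's probe sets they stood at 0.44 and -0.49.

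**Figure D2:**
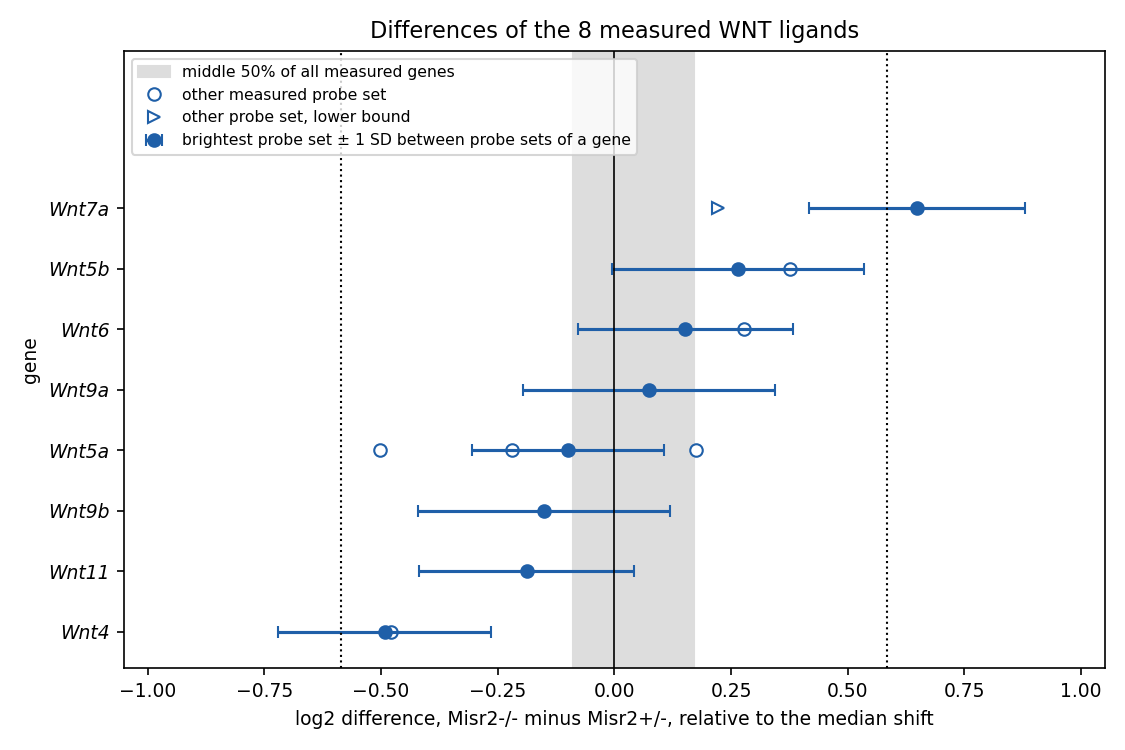
Log2 differences of the 8 measured ligands, Misr2-/- minus Misr2+/- relative to the median shift, in order of size. Filled points are the brightest probe set with 1 SD of the spread between probe sets of a gene, open symbols the other measured probe sets, the grey band the middle 50% of all measured genes (-0.09 to 0.17) and the dotted lines 1.5-fold. The bars of Wnt7a and Wnt4 stand clear of 0, and the 4 open and filled Wnt5a symbols lie on both sides of it.

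The start regions of these 2 genes are shown because their transcripts lay at opposite ends of the ligands. Each sequence is the 250 bases before the annotated start on the gene's own strand, from RefSeq on GRCm38.p6, at chr4:137277385-137277634 (plus strand) for Wnt4 and chr6:91411354-91411603 (minus strand) for Wnt7a, with the letters GGCGCC in capitals. This GC-rich motif is known to bind the Smads that carry BMP and MIS signals.
Wnt4: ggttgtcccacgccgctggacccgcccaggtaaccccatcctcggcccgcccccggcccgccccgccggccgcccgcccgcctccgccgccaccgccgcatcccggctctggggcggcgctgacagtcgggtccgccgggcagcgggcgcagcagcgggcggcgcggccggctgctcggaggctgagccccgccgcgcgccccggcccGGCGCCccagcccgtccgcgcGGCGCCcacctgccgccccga
Wnt7a: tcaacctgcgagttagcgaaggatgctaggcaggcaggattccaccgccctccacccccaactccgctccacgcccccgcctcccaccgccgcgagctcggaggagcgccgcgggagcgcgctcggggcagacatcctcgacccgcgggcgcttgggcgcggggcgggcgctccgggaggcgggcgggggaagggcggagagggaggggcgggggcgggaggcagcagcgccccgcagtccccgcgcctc
The Wnt4 window holds 2 copies of the motif, 42 and 21 bases before the start, and the Wnt7a window holds 0.

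Promoter windows were found for 9 of the 10 ligands, 12 windows in all, since Wnt5b has 3 and Wnt11 has 2. Wnt5a is the ligand without one. The motif GGCGCC, which reads the same on both strands, occurred in 5 of the 12 windows, 1 each of Wnt2, Wnt2b, Wnt4, Wnt9a and Wnt11, and in 9.59% of all 32851 promoter windows of that length. The GC box CCGCCC, a site for Sp-family factors searched on both strands, occurred in 10 of the 12 windows and in 32.7% of all windows. Wnt4 had 8 copies and Wnt7a 6. These windows are rich in G and C, at 85.2% for Wnt4 and 77.6% for Wnt7a against a median of 52.4%. The TCF/LEF core CTTTGA, searched on both strands, was found in 2 of the 12 windows, of Wnt5b and Wnt11 (13.8% of all windows), and TATAAA, also on both strands, in 1, of Wnt11 (12.4%). In the Wnt11 window a GGCGCC and a GC box share 1 base, and no other such overlap occurred. These matches describe the letters of the windows only.

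Wnt5a is a mesenchymal ligand that in the mouse drives outgrowth of the genital tract and signals largely without beta-catenin. Its 4 measured probe sets did not share a direction relative to the median shift. The brightest, 1436791_at, gave 4564.8 in the Misr2-/- pool and 4087 in the Misr2+/- pool. The next, 1448818_at, gave 2897.2 in the Misr2-/- pool and 2818.8 in the Misr2+/- pool. In log2 differences these 2 stood at -0.10, within the spread of 0.20, and at -0.22, just beyond it (0.16 and 0.04 as deposited). The probe set 1437673_at, at 1767.9 in the Misr2-/- pool and 1309.1 in the Misr2+/- pool, had a log2 difference of 0.17. The dimmest, 1456976_at, at 260.6 in the Misr2-/- pool and 308.6 in the Misr2+/- pool, had one of -0.50. Wnt5a lies on chromosome 14. Relative to the median shift, it was the 1 ligand of the 5 with several measured probe sets that lay on both sides of 0. Scaled to the spikes, each difference is 0.39 lower, and all 4 Wnt5a values lie below 0. Which parts of the transcript each probe set covers was not analysed here.

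Wnt5b, the paralogue of Wnt5a, on chromosome 6, was above 0 in both probe sets, though the brighter stood at -0.12 when scaled to the spikes. The probe set 1439373_x_at gave 409.5 in the Misr2-/- pool and 284.8 in the Misr2+/- pool. The probe set 1422602_a_at gave 338.6 in the Misr2-/- pool and 218 in the Misr2+/- pool. The log2 differences of 0.27 and 0.38 stood beside a spread of 0.27 at these signals, so that the brighter one was just within it. The identifiers of both probe sets mark sequences that several transcripts can share. Wnt5b minus Wnt5a was 0.36 on the log2 scale, against a spread of 0.34 for such a gap.

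Wnt6, an epithelial ligand, had signals of 1301.1 in the Misr2-/- pool and 978.5 in the Misr2+/- pool in 1419708_at, and of 232.1 in the Misr2-/- pool and 160 in the Misr2+/- pool in 1435980_x_at. Both log2 differences were above 0, at 0.15 (-0.23 when scaled to the spikes) and 0.28. The first was within its spread of 0.23 and the second just beyond its spread of 0.27. The identifier of the second probe set marks a sequence that several transcripts can share. Wnt6 lies beside Wnt10a on chromosome 1, and Wnt10a stood at -0.16, with 224.8 in the Misr2-/- pool and 209.3 in the Misr2+/- pool. The neighbours thus lay on opposite sides of 0, with a gap of 0.31 that was less than the spread for such a gap, 0.36.

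Wnt9b, the Wolffian duct ligand on chromosome 11, was measured in 1 of its probe sets, 1443197_at, with 233.2 in the Misr2-/- pool and 216.4 in the Misr2+/- pool. Its log2 difference of -0.15 was within the spread of 0.27 and turned to 0.11 as deposited. Its other probe set, 1451711_at, was under the floor, with 32.4 in the Misr2-/- pool and 32.9 in the Misr2+/- pool. Wnt9a, its paralogue and a ligand of developing joints, had 581.3 in the Misr2-/- pool and 461.5 in the Misr2+/- pool in 1436978_at, a log2 difference of 0.07 (-0.31 when scaled to the spikes), and its probe set 1425889_at was under the floor. Wnt9a minus Wnt9b was 0.23 on the log2 scale, less than the 0.38 spread of such a gap.

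Wnt11, a ligand of the ureteric bud tips in the developing kidney, lies on chromosome 7 and had 1 probe set, 1450772_at. Its signals were 718.9 in the Misr2-/- pool and 684.6 in the Misr2+/- pool, for a log2 difference of -0.19 that was within the spread of 0.23 and was 0.07 as deposited. The related ligands Wnt2 and Wnt2b, which together specify the mouse lung, had 1 probe set each and were not measured. Wnt2 gave 100.3 in the Misr2-/- pool and 59.4 in the Misr2+/- pool, and Wnt2b 85.7 in the Misr2-/- pool and 81.2 in the Misr2+/- pool, all under the floors. From high to low the log2 differences ran Wnt7a, Wnt5b, Wnt6, Wnt9a, Wnt5a, Wnt9b, Wnt11 and Wnt4. Of the 7 gaps between neighbours in this order, 1 exceeded the spread of an unsorted pair. That was the gap from Wnt7a to Wnt5b, at 0.38 against 0.36. Sorting by the differences makes neighbouring gaps small, so this comparison cannot test the order.

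**Figure D3:**
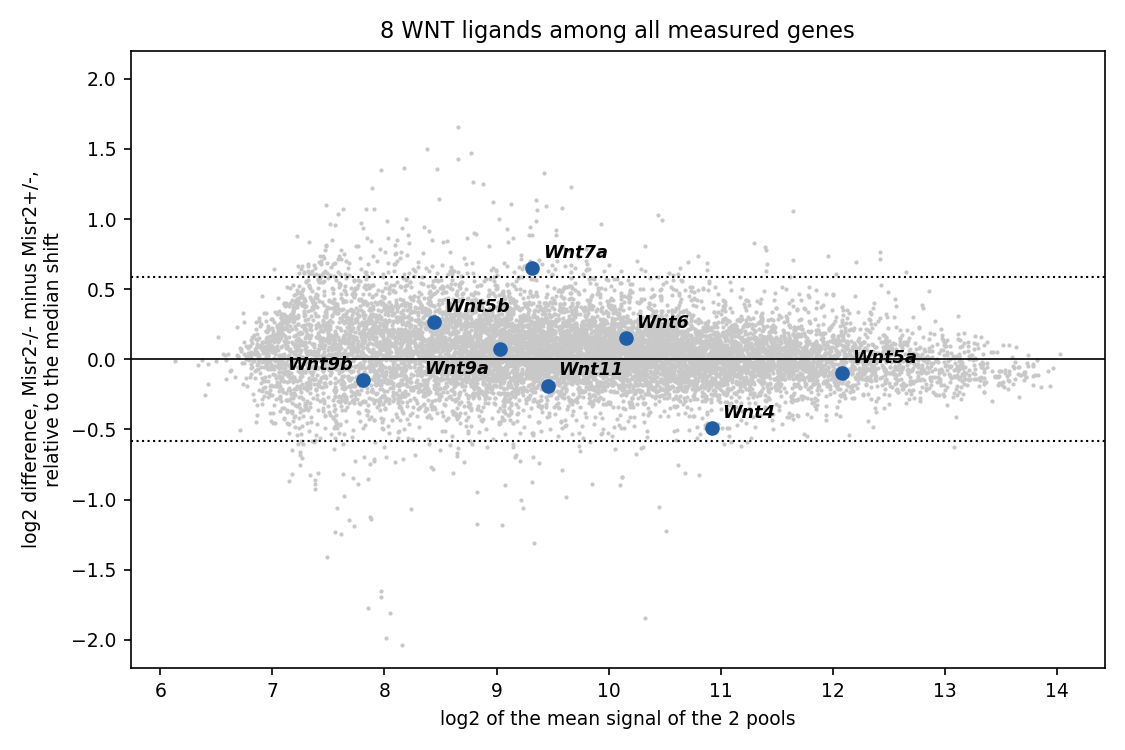
Log2 difference, Misr2-/- minus Misr2+/- relative to the median shift, against the log2 of the mean signal for all 11432 measured genes (grey), with the 8 measured ligands in blue. Dotted lines mark 1.5-fold, and 2 genes lie outside the plotted range. Wnt7a sits above the upper line, Wnt4 just inside the lower one, and the other 6 ligands within the bulk of genes of like signal.

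The ligands can also be read against the authors' deposited table, which lists 739 probe sets and no fold below 2 in size. None of the 20 probe sets of the ligands was in it. With the scaling constants behind that table, the brightest Wnt7a probe set came to 1.55-fold, and that of Wnt4 to a ratio of 0.70. The Wnt7a probe set 1458334_at, under both floors, came to 4.23-fold lower in the Misr2-/- pool and was absent too. Absence from the authors' table therefore does not by itself mean a fold below 2.

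Of the other 9 WNT ligands, 2 were measured and both were below 0. Wnt7b, the paralogue of Wnt7a, had 290.5 in the Misr2-/- pool and 286.2 in the Misr2+/- pool, a log2 difference of -0.24. This was within the spread of 0.27 at its signal. Wnt7a minus Wnt7b was 0.89 on the log2 scale, against a spread of 0.36 for 2 genes chosen without regard to their values. Wnt7a was the highest of the measured ligands, so 0.36 understates the spread for this gap, which was not tested. Wnt10a is given above, and the other 7, Wnt1, Wnt3, Wnt3a, Wnt8a, Wnt8b, Wnt10b and Wnt16, were under the floor in both pools.

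The other genes of the pathway are given relative to the median shift. As deposited each difference is 0.26 higher, and scaled to the spikes 0.39 lower, so the sign of small ones depends on the scaling. Genes that make and release the ligands lay close to 0. Among 8 measured genes of WNT lipidation and secretion, 5 lay above 0 and 3 below it, the median was 0.04 and 0 were past 1.5-fold. Porcn, the acyltransferase that attaches the lipid, stood at 0.30, with 175.6 in the Misr2-/- pool and 119.2 in the Misr2+/- pool. Vps26a, of the retromer that recycles the WNT carrier, stood at -0.17.

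Outside the cell, 14 measured glypicans, syndecans and enzymes that act on WNTs or on heparan sulphate had a median of 0.02. Notum, which removes the lipid from WNTs, was the 1 member past 1.5-fold, with 1438 in the Misr2-/- pool and 777.1 in the Misr2+/- pool, 1.55-fold higher. Among 11 measured secreted WNT inhibitors, which include Notum, the median was 0.09, and Wif1, which binds WNTs directly, was at least 3.41-fold lower, with 65.4 in the Misr2-/- pool and 397.8 in the Misr2+/- pool. Among 6 measured R-spondins, Lgr receptors and ligases, 3 lay on each side of 0, and Lgr5, an R-spondin receptor, was 1.54-fold higher, with 521.9 in the Misr2-/- pool and 283.8 in the Misr2+/- pool.

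Among 14 measured WNT receptors and co-receptors, 9 lay above 0 and 5 below it, and the median was 0.08. Fzd10 was the 1 receptor past 1.5-fold, with 412.4 in the Misr2-/- pool and 172.4 in the Misr2+/- pool, just under 2-fold higher in its 1 measured probe set. The 15 measured genes of the beta-catenin pathway had a median of 0.04 and 0 past 1.5-fold, with Bcl9, a beta-catenin cofactor, at 0.44 (a second probe set at -0.13) and Gsk3a, a kinase of the pathway, at 0.34. The 13 measured planar polarity genes had a median of 0.10 and 0 past 1.5-fold, with Celsr2, a polarity cadherin, at 0.55 and Daam1, a formin, at 0.20 (its other probe sets at -0.42 and 0.31).

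The canonical WNT readout genes had the highest median of the pathway lists, 0.37 over 14 measured genes, of which 11 were above 0 and 5 were at least 1.5-fold higher, against 57.7% and 2.08% of all measured genes. These were Nkd2, Notum, Apcdd1, Lgr5 and Tnfrsf19, where Notum and Lgr5 also belong to lists above. Below 0 lay Nkd1 at -0.38 (4 measured probe sets from -0.38 to 0.25), Lef1 at -0.18 and Dkk1 at a bound of -0.37. Nkd2, a feedback inhibitor, had 995.1 in the Misr2-/- pool and 390.6 in the Misr2+/- pool, 2.13-fold higher in the brightest of 4 measured probe sets, whose log2 differences ran from 0.01 to 1.09. Apcdd1, a membrane inhibitor of WNT signalling, had 8359 in the Misr2-/- pool and 4541.7 in the Misr2+/- pool, and the lowest of its 5 measured probe sets stood at 0.49 on the log2 scale. Tnfrsf19, a receptor of the TNF family, had 1970.8 in the Misr2-/- pool and 1083.6 in the Misr2+/- pool, and its 3 measured probe sets ran from -0.10 to 0.60. Notum, Lgr5, Apcdd1 and Tnfrsf19 were short of 1.5-fold when the arrays were scaled to the spikes. The readout list was chosen with earlier results of these arrays known, and its median was 0.63 as deposited and -0.01 when the arrays were scaled to the hybridisation spikes. The ligands' own median was -0.01 relative to the median shift and -0.40 when scaled to the spikes. The 2 lists were not tested against each other.

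**Figure D4:**
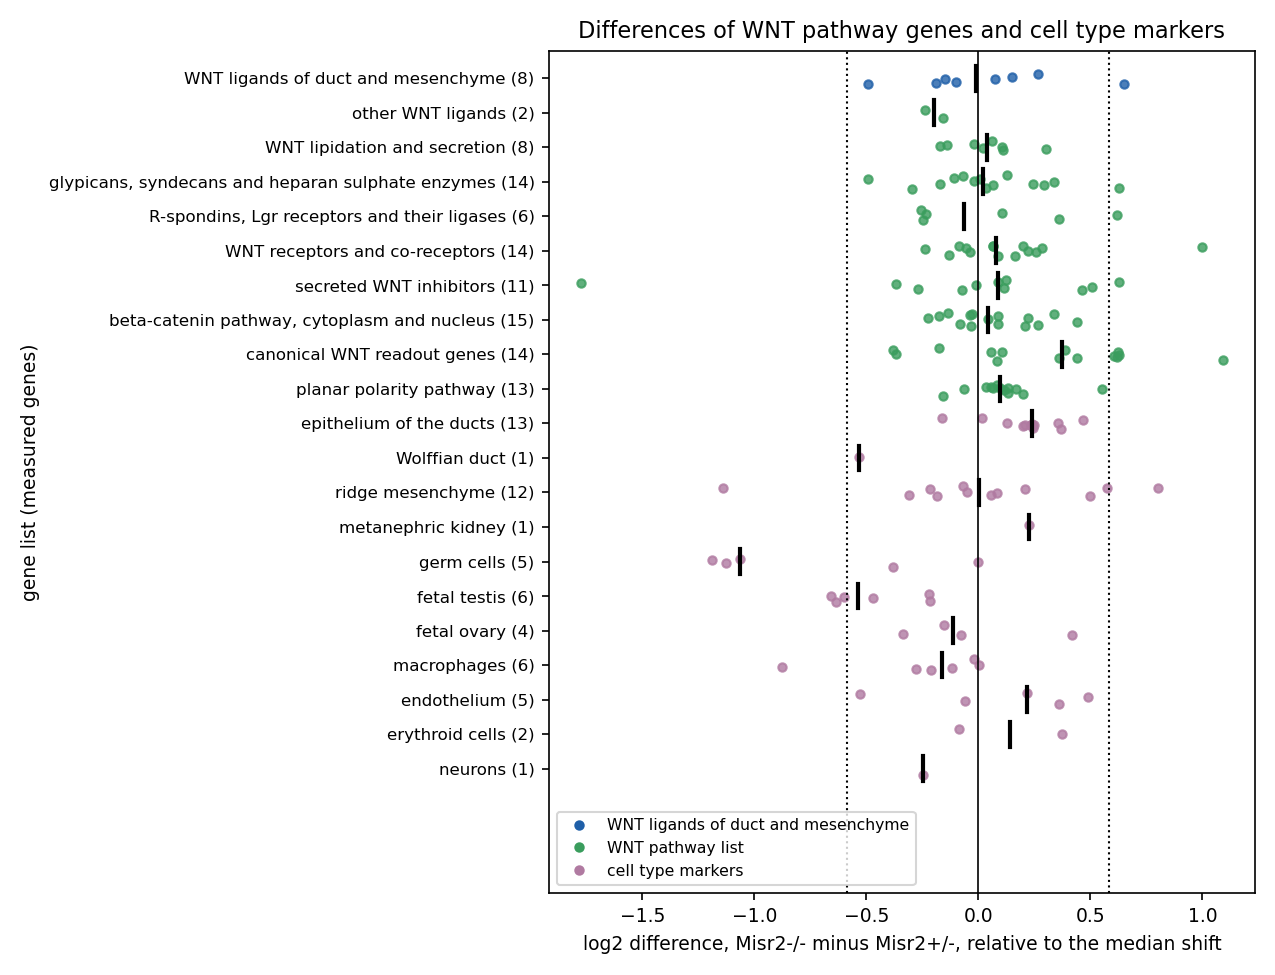
Log2 differences, Misr2-/- minus Misr2+/- relative to the median shift, of the measured genes in each list, with the number measured in brackets, black bars at the medians and dotted lines at 1.5-fold. The ligands (blue) centre on 0, the canonical readout genes lie mostly right of it (median 0.37, but -0.01 when scaled to the spikes), and germ cell and fetal testis markers lie left.

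Markers of the cells that make these ligands were set beside them. Of 15 markers of duct epithelium, the source of Wnt7a, 13 had a probe set and were measured. Of these, 12 were above 0, against 57.7% of all measured genes, and 0 were past 1.5-fold. Their median was 0.24 (-0.15 when scaled to the spikes). Their summed signal was 21567.3 in the Misr2-/- pool and 15545.4 in the Misr2+/- pool, 0.21 on the log2 scale after the median shift. Wnt7a stood 0.41 above the list's median, and Wnt9b 0.39 below it. The part of duct epithelium in the Wnt7a difference was not tested. Of 4 Wolffian duct markers, Ret, Calb1 and Hoxb7 were under the floor in both pools, and Gata3 stood at -0.53 with 166.8 in the Misr2-/- pool and 201.4 in the Misr2+/- pool.

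The 12 ridge mesenchyme markers had a median of 0.00, with 6 on each side of 0 and a summed signal of 58092.9 in the Misr2-/- pool and 51514 in the Misr2+/- pool. Summed signals are given as deposited, and those of the mesenchyme differed by -0.09 on the log2 scale after the median shift. The mesenchyme markers ranged widely around their median. Osr1, a mesenchymal transcription factor gene, stood at -1.14 with 165.4 in the Misr2-/- pool and 304.4 in the Misr2+/- pool. The Hox gene Hoxa11 stood at 0.80 with 1044 in the Misr2-/- pool and 499.8 in the Misr2+/- pool, and Hoxa10 at 0.57. Wnt5a stood 0.10 below the list's median and Wnt4 0.50 below it. Markers of germ cells and of the fetal testis were measured although gonads had been removed, and gonadal cells can also express Wnt4. Several of these markers were close to the floor. Ddx4, Pou5f1, Dhh and Defb19 lay under it in the Misr2-/- pool, so their differences are bounds, with Pou5f1 at -0.004. The 5 germ cell markers all lay below 0 (median -1.07), and their summed signal was 679.2 in the Misr2-/- pool and 1230.7 in the Misr2+/- pool. The 6 measured testis markers also lay below 0 (median -0.54), and their sums were 1034.2 in the Misr2-/- pool and 1291.5 in the Misr2+/- pool, while Amh was under the floor. Among all measured genes, 57.7% lay above 0. The 4 fetal ovary markers had a median of -0.11, and 1 of them, Foxl2, was above 0 at 0.42. Their sums were 1905.3 in the Misr2-/- pool and 1699 in the Misr2+/- pool as deposited, which is -0.09 on the log2 scale after the median shift. The part of gonadal tissue in the Wnt4 difference was not tested.

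Other cell types had medians of -0.16 for 6 macrophage markers, 0.22 for 5 endothelial markers and 0.14 for 2 measured erythroid markers. Scaled to the spikes these medians were -0.55, -0.17 and -0.24. The macrophage markers ran from -0.87 to 0.004, the endothelial from -0.53 to 0.49 and the erythroid from -0.09 to 0.37. The summed endothelial signal stood at -0.06 on the log2 scale after the median shift. Among kidney markers, 1 of 7 was measured, Eya1 at 0.23, and Six2, Cited1 and Nphs1 were under the floor. Among neuron markers, 1 of 4 was measured, Stmn2 at -0.25.

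How the arrays are scaled set the sign of 6 of the 8 ligands. As deposited, 7 ligands were above 0 and Wnt4 alone below, while 92.9% of all genes were above 0. Wnt7a was then the 1 ligand at least 1.5-fold higher, as were 10.1% of all genes, and 0 were as much lower, against 0.341%. Scaled to the 9 hybridisation spikes, Wnt7a alone was above 0, at 0.26, and 6.98% of all genes were. Under that scaling Wnt4, at -0.88, was the 1 ligand at least 1.5-fold lower, as were 11.1% of all genes, and 0 ligands were as much higher, against 0.271% of genes. Wnt7a stayed above 0 and Wnt4 below 0 in all 13 ways of processing that were run, with ranges of 0.26 to 0.91 and of -0.88 to -0.23. These 13 reuse the same 2 arrays and are not independent. Floors at the 40th and 60th percentile, and leaving out shared probe sets, could not change either value. The brightest probe sets of both genes lie above those floors and are not marked as shared.

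**Figure D5:**
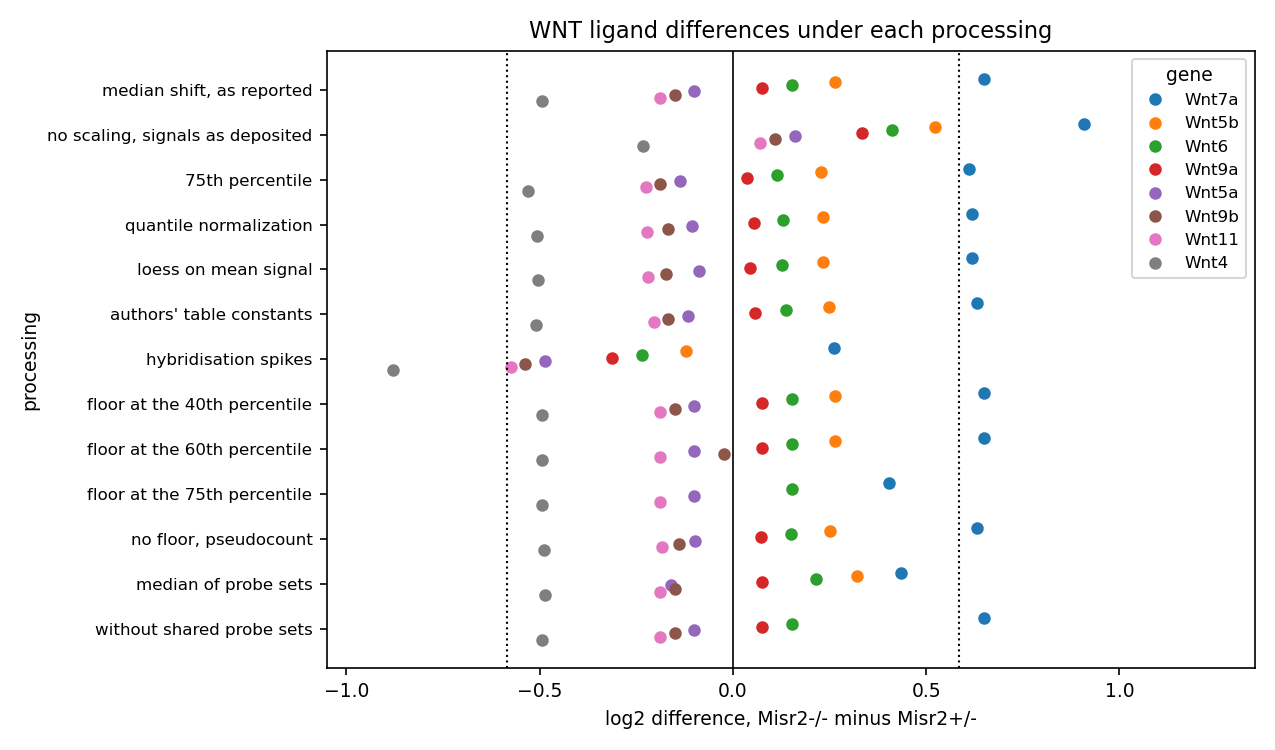
Log2 differences, Misr2-/- minus Misr2+/-, of the measured ligands under the reported processing (top row) and 12 alternatives, 1 colour per gene, with dotted lines at 1.5-fold. Wnt4 is leftmost and Wnt7a rightmost in each row, and the whole group moves right as deposited and left when scaled to the spikes.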

How the data were processed

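RNA of 1 Misr2-/- and 1 Misr2+/- pool was measured on single-colour Affymetrix arrays. The authors deposited a linear intensity for each probe set on each array. The submitters' processing notes name GCOS and MAS5, with no version or role. The authors' deposited table of 739 probe sets gives intensities on another scale and a signed fold, treated as a score. Its filter, and how the value table was scaled, are not stated in the labels. Of 45037 probe sets, 34945 had 1 gene symbol, 932 several and 9160 none. A gene was represented by its brightest measured probe set, and a signal below its floor was raised to the floor, which makes such folds bounds. All ligands, Amhr2, and in each pathway list the genes past 1.5-fold or else the 2 with the largest difference, were named. The readout genes below 0 were named as well. Marker genes were named after their values were seen. Chromosomes come from RefSeq (GRCm38.p6). Members, lists and scaling were chosen with earlier results of these data known. Protein identity was not analysed here. The procedure was tested on simulated data whose planted changes were larger than any ligand difference here, so it does not gauge calls at 1.5-fold. Python 3.11.15, pandas 2.3.3 and statsmodels 0.14.6 were used. The number of arrays limits the precision.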

Additional observations from a re-analysis of the deposited data

How the results depend on the processing

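With 1 array per pool, no replicate could be left out, and no test between genotypes exists. No paired analysis was possible because each group had 1 array. The 12 alternatives changed scaling, floor or choice of probe set. The median log2 difference of the ligands, -0.01, was 0.25 as deposited and -0.40 when scaled to the spikes, and the 4 ligands above 0 became 7 and 1. Scaled to the spikes, 0 ligands were at least 1.5-fold higher and 1 was at least 1.5-fold lower. With the floor at the 75th percentile, 5 ligands were measured, 2 lay above 0 and 0 were at least 1.5-fold higher, because Wnt7a became a bound at 0.40. With the median over each gene's measured probe sets, 0 were at least 1.5-fold higher, with Wnt7a at 0.44 as the middle of 0.65 and the bound 0.22. The other 63 of 72 comparisons of counts and medians stayed within 1.5 times or within the spread. Without shared probe sets Wnt5b was not measured, and with the floor at the 40th percentile or a pseudocount of 16 all 10 ligands were. Wnt2, Wnt2b, Wnt9b and the dim probe sets lie too near the floor to be read for size.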

Other observations

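The ligands' neighbours on the chromosomes were taken in the order of the RefSeq annotation. Of 20 neighbouring protein-coding genes, 1 on each side of each ligand, 15 were measured. Of these, 13 lay within 0.3 of 0 on the log2 scale, as did 83.3% of all measured genes. Wnt7a, at 0.65, lies between Fbln2, the gene of the matrix protein fibulin 2, and Chchd4, of a mitochondrial import protein. Fbln2 was the lowest neighbour at -0.51, with 1180.1 in the Misr2-/- pool and 1406.9 in the Misr2+/- pool, and Chchd4 stood at -0.03. Wnt4, at -0.49, lies between Zbtb40, a zinc finger gene below 0 like Wnt4 at -0.32, and Cdc42, a small GTPase gene at 0.01. The 5 neighbours not measured include the ligand genes Wnt3a beside Wnt9a and Wnt3 beside Wnt9b, both under the floor in both pools. These genes were looked up after the ligands' values had been seen.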
